A study of Mus musculus with 4 samples.

Results

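The nuclear-encoded genes of oxidative phosphorylation were described in immune cells of mouse skin wounds. They were taken by gene symbol, as every row whose symbol starts with Nduf, Sdha, Sdhb, Sdhc, Sdhd, Uqcr, Cox4, Cox5, Cox6, Cox7, Cox8 or Atp5, without pseudogene rows ending in -ps. This gave 97 of the 31053 rows of the deposited matrices, with 96 distinct symbols because Atp5o has 2 identifiers. By role, 36 rows were subunits of complex I, 4 of complex II, 8 of complex III, 20 of complex IV and 16 of complex V, 12 were assembly factors and 1, Atp5s, was set apart. The genes lie on 19 chromosomes.

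Live CD45+ cells, a pan-hematopoietic sort without propidium iodide uptake, were taken from 3 mm excisional skin wounds of mice labelled as strain C57BL6/J and captured with a droplet 3′ single-cell kit that tags each captured RNA molecule with a unique molecular identifier (UMI). There were 4 libraries, 1 for each group: Angptl4+/+ at 1 day postwounding (dpw), Angptl4+/+ at 5 dpw, Angptl4-/- at 1 dpw and Angptl4-/- at 5 dpw. The mice were male and 8 weeks old, the Angptl4-/- mice carry a deletion of Angptl4, a secreted inhibitor of lipoprotein lipase, in the whole animal, and the number of mice behind each library is not given in the sources used here. Every group was wounded, so no library represents unwounded skin. With 1 library per group there is no replicate check of any difference between groups, and no test was made. Intervals are exact 95% intervals of the counting error alone.

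Oxidative phosphorylation passes electrons from NADH through complex I, or from succinate through complex II, to coenzyme Q, on through complex III and cytochrome c, and to oxygen at complex IV, and the proton gradient this builds drives ATP synthesis at complex V. Most subunits are encoded in the nucleus and 13 in the mitochondrial genome, so each complex other than complex II is assembled from the products of both. Neutrophils are known for few mitochondria and a reliance on glycolysis, whereas macrophages differ in mitochondrial activity with their state of activation.

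Between 4738 and 5346 cells per library passed the filters (19827 of 20069 barcodes), and the libraries held 26981596 to 32962595 UMIs. Angptl4 itself had 47 and 78 UMIs in the Angptl4+/+ libraries and 0 in both Angptl4-/- libraries, where a count of 0 allows up to 3. Pairs of libraries shared 5 to 15 cell barcodes. Cells were clustered without the oxidative phosphorylation genes and the clusters were named from marker genes, which gave neutrophil-like (3890, 2703, 3701 and 3507 cells), macrophage-like (1149, 1544, 842 and 641), monocyte-like (153, 131, 126 and 131), dendritic cell-like (113, 319, 91 and 213) and NK cell/T cell-like cells (36, 227, 36 and 219). Where 4 values stand together, here and throughout, they are in the order Angptl4+/+ 1 dpw, Angptl4+/+ 5 dpw, Angptl4-/- 1 dpw and Angptl4-/- 5 dpw. B cell-like cells, 55 in all, were left out.

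Levels are UMIs of a gene, or of a group of genes, summed over all cells of a class in a library and scaled to 1000000 UMIs of that class (CPM). Each UMI stands for 1 captured 3′ end, so CPM carries no dependence on transcript length. Of the 97 genes, 92 had at least 100 UMIs over all cells, 2 had fewer (Cox4i2 with 74 and Cox8b with 1), and 3 had no UMI (Cox7b2, Cox8c and the second Atp5o identifier). In 28 of the 97 genes more than 10% of the 31-base words in the last 500 bases of the transcript also occurred in transcripts of other genes, so reads from near-identical copies could be lost or misassigned there. For Atp5g1 this share was 52.1% and for Atp5g2 it was 49.6%, and their values carry this uncertainty.

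Promoters of 3 of the genes are shown because these genes recur in the results below. Atp5g1 and Atp5g3 encode the same mature subunit c of complex V, the proton-carrying ring, and moved differently between days in macrophage-like cells. Ndufaf4, a complex I assembly factor, had the largest change between days there. The stretches come from the 250 bases before the RefSeq gene start, on the gene's strand and without bases of annotated exons, in GRCm38.p6, at chr11:96075671-96075881 for Atp5g1 (minus strand), chr2:73911327-73911576 for Atp5g3 (minus strand) and chr4:24897833-24898082 for Ndufaf4 (plus strand). Capitals mark a match to a searched motif, on either strand.
Atp5g1: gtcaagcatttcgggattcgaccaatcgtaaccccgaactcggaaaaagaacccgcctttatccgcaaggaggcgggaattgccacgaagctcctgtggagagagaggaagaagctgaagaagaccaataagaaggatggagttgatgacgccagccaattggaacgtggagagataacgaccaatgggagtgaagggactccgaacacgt
Atp5g3: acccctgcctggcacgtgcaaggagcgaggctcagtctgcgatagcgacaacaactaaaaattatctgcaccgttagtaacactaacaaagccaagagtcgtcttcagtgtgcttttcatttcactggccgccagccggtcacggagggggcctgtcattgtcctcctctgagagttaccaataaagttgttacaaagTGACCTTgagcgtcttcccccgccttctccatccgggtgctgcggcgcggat
Ndufaf4: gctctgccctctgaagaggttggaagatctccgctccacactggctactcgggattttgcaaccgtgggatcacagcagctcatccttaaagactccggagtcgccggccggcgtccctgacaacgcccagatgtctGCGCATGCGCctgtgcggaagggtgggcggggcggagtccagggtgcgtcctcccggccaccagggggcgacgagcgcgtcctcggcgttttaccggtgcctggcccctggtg

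The capitals in Atp5g3 are the reverse complement of AAGGTCA, a half-site of oestrogen-related receptors, 52 bases before the start. Those in Ndufaf4 hold GCATGCGC, the core of the NRF1 site, on both strands, at 113 and 111 bases before the start. Atp5g1 held no match in the stretch shown. In 300-base windows around the start, searched on both strands, GCATGCGC stood in 12 of the 80 genes with a promoter in the RefSeq table (15%), beside 3.05% of all 27025 genes in the table and 6.14% of the 8902 genes with at least 100 UMIs. AAGATGGC, bound by YY1, stood in 11 (13.8%), beside 3.19% and 5.56%. AAGGTCA stood in 8 (10%), beside 5.38% and 4.02%, and the ETS motif CCGGAAGT in 5 (6.25%), beside 4.31% and 9.75%. Any of these motifs stood in 33 genes (41.2%), beside 14.9% and 23.1%. A match describes the letters of the window and is not evidence of binding.

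The genes took their smallest share of UMIs in neutrophil-like cells. Summed over the 97 genes, the level was 3347, 5858, 3118 and 5344 CPM in neutrophil-like cells, 13322, 15022, 13241 and 15998 in macrophage-like cells, 20069, 16131, 20057 and 17216 in monocyte-like cells and 15942, 17493, 17071 and 16580 in dendritic cell-like cells. The NK cell/T cell-like class stood at 13936, 20155, 14980 and 19470 CPM. Monocyte-like cells were highest in both libraries of 1 dpw and NK cell/T cell-like cells in both of 5 dpw. Neutrophil-like cells were lowest in all 4 libraries. The 13 mitochondrially encoded subunits were also lowest in neutrophil-like cells, at 4154, 4231, 3676 and 4321 CPM, beside 23218, 32729, 24543 and 34333 in macrophage-like cells.

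**Figure D1:**
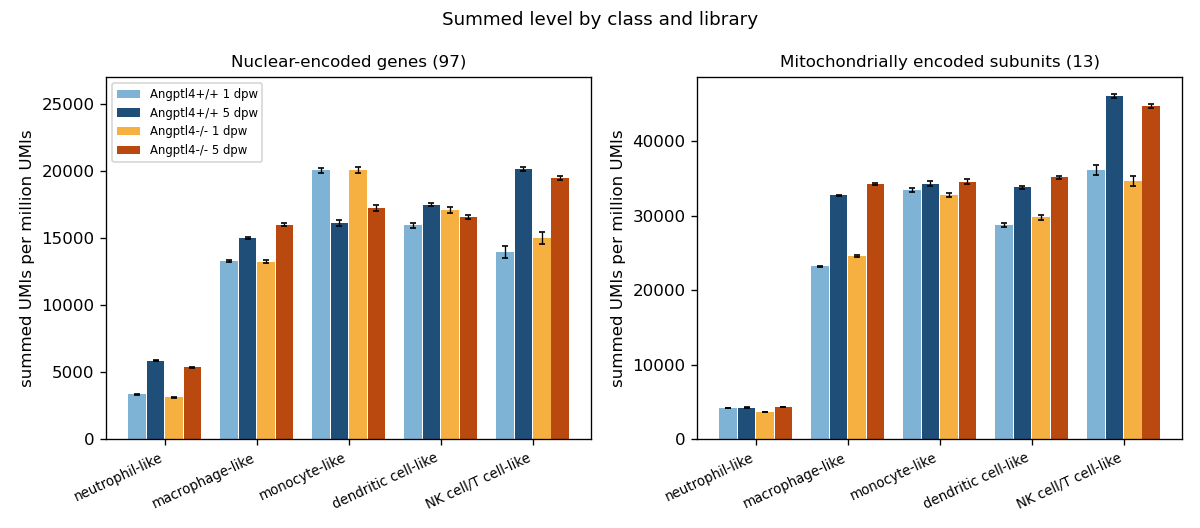
Bars give the summed CPM of the 97 nuclear-encoded genes (left) and of the 13 mitochondrially encoded subunits (right) in each class and library, with exact 95% Poisson intervals of the counting error. Neutrophil-like cells are lowest in every library in both panels, and their nuclear-encoded bars are taller at 5 dpw than at 1 dpw.

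Neutrophil-like cells were also the lowest cell by cell. The median neutrophil-like cell gave 0.31%, 0.54%, 0.28% and 0.48% of its UMIs to these genes, and the median macrophage-like cell 1.26%, 1.40%, 1.21% and 1.52%. In absolute terms a neutrophil-like cell carried a mean of 16.9, 18.8, 15.4 and 18.7 UMIs of the 97 genes and a macrophage-like cell 104, 127, 90.5 and 191. Median depths differed as well, at 4682.5, 3219, 4636 and 3393 UMIs per neutrophil-like cell and 6834, 8339, 5806 and 11536 per macrophage-like cell.

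Within a class a few genes held much of the sum. The 10 highest genes took 42.4% to 47.2% of the summed level in neutrophil-like cells and 29.9% to 31.5% in macrophage-like cells. Cox8a, a small subunit of complex IV, was the highest of the 97 in neutrophil-like cells of all 4 libraries, at 333, 554, 343 and 547 CPM. Cox4i1, the regulatory subunit of complex IV, led in the macrophage-like, monocyte-like and dendritic cell-like cells of all 4 libraries. It also led among NK cell/T cell-like cells in 3 libraries, with Cox8a first in Angptl4-/- at 5 dpw. In macrophage-like cells Cox4i1 stood at 731, 777, 679 and 721 CPM.

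Macrophage-like and neutrophil-like cells of the same library were compared gene by gene. A gene is counted as higher or lower where its log2 ratio passed 0.5 in size with the same sign in all 4 libraries, among genes with at least 100 UMIs over both classes in each library. Of the 97 genes 80 met the minimum, and 73 of them were higher in macrophage-like cells, beside 51.1% of the 7053 genes tested over the whole table. One gene, Ndufaf7, was lower, beside 12% of genes. Genes low in neutrophil-like cells pass the minimum through their macrophage-like UMIs, so the count of those that passed does not stand for all 97. All genes together were already higher in macrophage-like cells, with median log2 ratios of 1.43, 0.95, 1.45 and 0.87, and the 10 highest genes of neutrophil-like cells, led by S100a9 and S100a8, took 34.1%, 26.0%, 35.4% and 25.9% of that class's UMIs. The part of this composition in the ratios was not tested. Taken relative to the median of all genes in each library, 42 of the 80 passed upward (52.5%), beside 27.5% of genes, and 2 passed downward, Ndufaf7 and Cox8a, beside 33.8%.

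Complex by complex, the count was 34 of 36 tested for complex I, 3 of 4 for complex II, 8 of 8 for complex III, 11 of 12 for complex IV, 14 of 15 for complex V and 3 of 5 for the assembly factors. These counts stand beside 51.1% of all genes tested. Those of complex II, complex III and the assembly factors rest on few genes. The log2 ratio of the summed level was 2.19, 1.43, 2.25 and 1.68 for complex I, and 2.15, 1.53, 2.26 and 1.74 for complex V. It was smaller for complex IV, at 1.79, 1.16, 1.86 and 1.35. The 13 mitochondrially encoded subunits were all higher in macrophage-like cells, with summed log2 ratios of 2.48, 2.95, 2.74 and 2.99. In each library this exceeded the ratio of each nuclear-encoded complex.

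**Figure D2:**
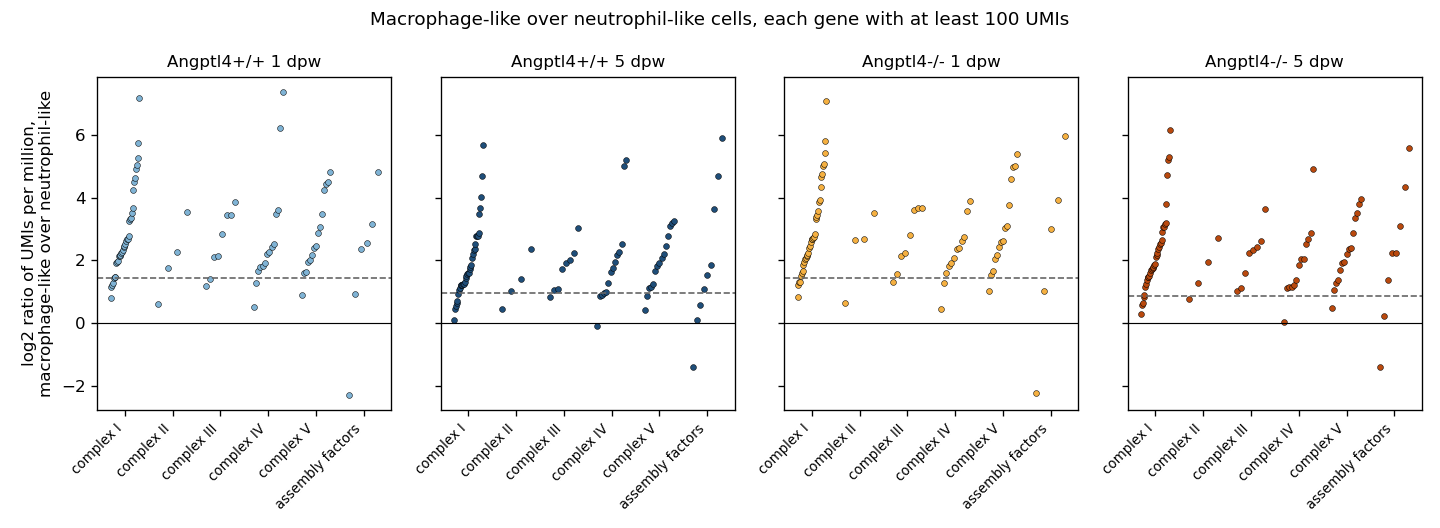
Each point is a gene with at least 100 UMIs over both classes, its height the log2 ratio of CPM in macrophage-like over neutrophil-like cells, in 1 panel per library, and the dashed line is the median of all genes tested (a class with 0 UMIs is set at 3). Most points lie above the dashed line in each panel, and the lowest assembly factor, Ndufaf7, lies below 0.

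Among the genes counted as higher, Ndufa5 differed most. Ndufa5, an accessory subunit of its peripheral arm (chromosome 6, 24518666 to 24528013), stood at 0.305, 1.27, 0.327 and 1.06 CPM in neutrophil-like cells, from 6, 11, 6 and 13 UMIs, and at 43.6, 65.3, 43.9 and 75 in macrophage-like cells. The log2 ratios of Ndufa5 were 7.16, 5.69, 7.07 and 6.15. Ndufc2, an accessory subunit of the membrane arm (chromosome 7, 97400003 to 97407802), stood at 1.88, 5.42, 1.58 and 3.90 CPM in neutrophil-like cells and at 99.1, 138, 87.5 and 144 in macrophage-like cells. Ndufc2 thus rested on 29 to 48 UMIs over all neutrophil-like cells of a library and on 504 to 1798 in macrophage-like cells. Ndufa9, which sits beside the coenzyme Q site, and Ndufa11, of the membrane arm, had log2 ratios of 4.01 to 5.29 and of 3.66 to 4.90. Among the most abundant subunits of complex I the difference was smaller: Ndufa2 had log2 ratios of 1.45, 0.71, 1.67 and 0.89, and Ndufb9 of 1.27, 0.45, 1.23 and 0.64.

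The 4 subunits of complex II, succinate dehydrogenase, spread widely. The membrane anchor Sdhc stood at 5.64, 14.5, 4.75 and 10.9 CPM in neutrophil-like cells and at 66.1, 75.4, 54.2 and 70.7 in macrophage-like cells, with log2 ratios of 3.55, 2.38, 3.51 and 2.70. The other anchor, Sdhd, stood at 30.5, 38.4, 25 and 31.7 CPM in neutrophil-like cells and at 46.9, 52.2, 39.1 and 53.5 in macrophage-like cells, with log2 ratios of 0.62, 0.44, 0.65 and 0.76. Both anchors belong to 1 membrane dimer, and their order by level was opposite in the 2 classes. The flavoprotein Sdha had log2 ratios of 2.26, 1.03, 2.64 and 1.29 and the iron-sulfur subunit Sdhb of 1.74, 1.42, 2.68 and 1.96. Sdhaf4, a chaperone that loads Sdha during assembly, rested on 5 to 14 UMIs in neutrophil-like cells and had log2 ratios of 4.81, 4.68, 5.96 and 4.33.

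In complex III, Uqcrh, the hinge protein at the cytochrome c contact, was the most abundant subunit, with log2 ratios of 1.17, 1.10, 1.31 and 1.12. In complex IV, Cox8a had log2 ratios of 0.51, -0.09, 0.47 and 0.02, the smallest of the subunits tested there. In complex V, the subunit g gene Atp5l had log2 ratios of 0.91, 0.43, 1.01 and 0.50, whereas the subunit c genes stood far apart: Atp5g1 had log2 ratios of 4.81, 3.18, 4.98 and 3.95, Atp5g2 of 4.49, 3.1, 5.40 and 3.52 and Atp5g3 of 4.25, 3.24, 4.59 and 3.80. Subunits of a single complex therefore differed in ratio by several log2 units within each library.

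Ndufaf7, a methyltransferase that modifies a core subunit of complex I during assembly (chromosome 17, 78937136 to 78948052), ran the other way. It stood at 37.9, 28.8, 33.9 and 25.5 CPM in neutrophil-like cells and at 7.84, 10.8, 7.29 and 9.69 in macrophage-like cells, with log2 ratios of -2.27, -1.41, -2.22 and -1.40. Ndufaf7 was named because it passed in all 4 libraries, so the order of these 2 classes is no separate support. Monocyte-like cells were higher still, at 65.4, 41.9, 46.5 and 46.9 CPM.

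The levels in neutrophil-like cells were set beside those of macrophage markers in the same class. The 11 macrophage markers stood in neutrophil-like cells at a median of 0.245%, 0.514%, 0.141% and 0.273% of their macrophage-like level, with Cd68 at 32.1% to 36.9% and Adgre1 at 9.39% to 11.9% standing above the other 9. The nuclear-encoded genes stood at a median of 18.6%, 30.9%, 16.3% and 24.1%. Of 78 to 86 genes compared, 0 or 1 per library lay at or below the marker median, the one being Ndufa4l2 at 5 dpw in Angptl4+/+. The share of all genes at or below that median was not computed, so this count does not set the nuclear-encoded genes apart. Genes entered this comparison only with at least 100 UMIs in macrophage-like cells. The markers come from the lists that named the clusters, so the naming itself favours low levels of them in neutrophil-like cells. The values are therefore a description only. Free RNA in the suspension gives UMIs to both classes and its share of the neutrophil-like UMIs of Ndufa5 and Ndufc2 was not tested.

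Other pathways were compared between the same classes. Of the tricarboxylic acid cycle, 9 of 10 genes tested were higher in macrophage-like cells, with summed log2 ratios of 1.61, 1.29, 1.94 and 1.56. Of glycolysis, 1 of 14 was higher (Gpi1) and 1 lower (Pfkp), with summed log2 ratios of 0.41, 0.02, 0.31 and -0.11. Of 91 cytosolic ribosomal protein genes 83 were higher and 2 lower, with summed log2 ratios of 2.25, 2.07, 2.46 and 2.15. The median log2 ratio of the ribosomal genes was 2.57, 2.20, 2.86 and 2.26. That of the nuclear-encoded genes was lower in each library, at 2.43, 1.69, 2.62 and 2.04. A higher level in macrophage-like cells was therefore not particular to the nuclear-encoded genes.

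From 1 to 5 dpw the nuclear-encoded genes rose in neutrophil-like cells of both genotypes. The summed level went from 3347 to 5858 CPM in Angptl4+/+, a log2 ratio of 0.81 (0.79 to 0.82), and from 3118 to 5344 in Angptl4-/-, a log2 ratio of 0.78 (0.76 to 0.79). A gene is counted here where its log2 ratio passed 0.5 in both genotypes. Of 76 genes tested 63 rose and 0 fell, beside 53.8% of 6492 genes over the whole table that rose and 3.8% that fell. All genes shifted upward on this scale, with medians of 0.66 and 0.69, while S100a8 and S100a9 together went from 16.9% to 9.27% of the UMIs of neutrophil-like cells in Angptl4+/+ and from 18.6% to 9.39% in Angptl4-/-. Relative to the median of all genes, 25 of the 76 passed upward (32.9%), beside 17.9% of genes, and 3 passed downward (Cox7c, Ndufaf7 and Cox7a2l), beside 18.4%. In UMIs per cell the change was smaller, from 16.9 to 18.8 and from 15.4 to 18.7, at a lower depth per cell.

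Markers of other cell types in the neutrophil-like class differed between days as well. Mast cell markers held 0, 53, 0 and 1889 UMIs there and red blood cell markers 5, 32, 8 and 16143, the latter 1313 CPM in Angptl4-/- at 5 dpw. Macrophage markers stood at 213, 409, 220 and 343 CPM, B cell markers at 10.8, 34.7, 16.6 and 40.8 and monocyte markers at 471, 351, 574 and 280. Mast cell and red blood cell markers together exceeded 1% of UMIs in 3 neutrophil-like cells, all in Angptl4-/- at 5 dpw. Without these 3 cells the summed log2 ratio was 0.81 in Angptl4+/+ and 0.78 in Angptl4-/-, and 63 genes rose. The part of the macrophage, B cell and monocyte markers in the day change was not tested.

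Each complex held genes that rose, on a scale where 53.8% of all genes rose. The count was 28 of 33 genes tested in complex I, 3 of 4 in complex II and 5 of 8 in complex III. It was 10 of 12 in complex IV, 14 of 15 in complex V and 3 of 4 for the assembly factors. The counts of complex II, complex III and the assembly factors rest on few genes. The summed log2 ratio in Angptl4+/+ and Angptl4-/- was 0.94 and 0.89 for complex I, 0.79 and 0.98 for complex II, 0.63 and 0.60 for complex III, 0.75 and 0.72 for complex IV and 0.83 and 0.82 for complex V. The summed ratio of complex III thus lay below the medians of all genes, 0.66 and 0.69, which weigh each gene alike. Uqcrh, its most abundant subunit, weighs most in that sum and did not pass, as given below. The sum therefore does not stand for each gene of complex III. The mitochondrially encoded subunits did not share this size of change, with summed log2 ratios of 0.03 and 0.23 and 3 of 12 tested past the threshold.

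Ndufb5, a subunit of the membrane arm of complex I, had the largest change that passed in both genotypes. It went from 2.95 to 19.6 CPM in Angptl4+/+ and from 3.22 to 17.1 in Angptl4-/-, log2 ratios of 2.73 (2.3 to 3.19) and 2.41 (1.98 to 2.85). Ndufaf8, an assembly factor that stabilises another complex I factor, went from 3.45 to 16.1 and from 2.62 to 11.3 CPM, log2 ratios of 2.22 and 2.11. Both genes were low at 1 dpw and their intervals lay well above those of the summed level. They were named for their large ratios, so these intervals are no separate support. The core subunit Ndufs3 went from 2.34 to 9.34 and from 1.91 to 8.78 CPM. Among the subunit c genes of complex V, Atp5g2 went from 7.01 to 29.3 and from 3.65 to 21.1, Atp5g1 from 4.98 to 23.3 and from 4.15 to 15.5, and Atp5g3 from 10.0 to 20.8 and from 8.02 to 14.6. All of these rose in both genotypes, with Atp5g3 the least, at log2 ratios of 1.05 and 0.87.

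The most abundant subunits changed by less. Cox8a went from 333 to 554 CPM and from 343 to 547, and Cox4i1 from 195 to 320 and from 161 to 277. Uqcrh stood at 165 and 192 CPM in Angptl4+/+ and at 141 and 167 in Angptl4-/-, log2 ratios of 0.21 and 0.25, and did not pass. Cox7c, a small complex IV subunit named after its values were seen, stood at log2 ratios of 0.14 and 0.10. Ndufaf7 was the one gene tested with log2 ratios below 0 in both genotypes, at -0.39 and -0.41, short of the threshold.

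**Figure D3:**
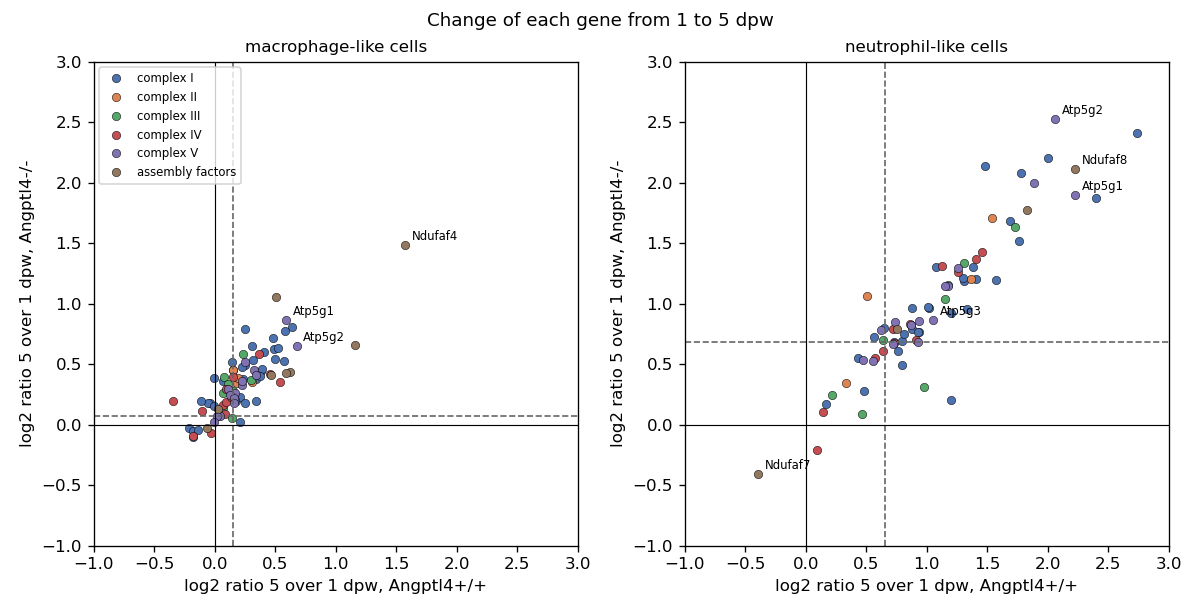
Each point is a gene with at least 100 UMIs over both days in both genotypes, placed by its log2 ratio of 5 over 1 dpw in Angptl4+/+ (horizontal) and Angptl4-/- (vertical), for macrophage-like (left) and neutrophil-like cells (right), with dashed lines at the medians of all genes. In neutrophil-like cells most points lie above 0.5 on both axes, and in macrophage-like cells most lie between 0 and 0.5, with Ndufaf4 apart.

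Each of the 7 neutrophil-like clusters showed the day change. The summed log2 ratio ranged over the clusters from 0.60 to 1.01 (Angptl4+/+) and from 0.60 to 1.11 (Angptl4-/-). In all 7 clusters of both genotypes it exceeded the median of all genes in that cluster, which was 0.05 to 0.59 and 0.12 to 0.59. That median was taken over genes with at least 100 UMIs in the cluster, so it covers fewer genes than the median over the class. It weighs each gene alike, unlike the summed ratio. The cluster led by Acot1, Siglecf and Ptgs1 gave the largest share of UMIs to the 97 genes, at 0.61%, 1.08%, 0.55% and 0.98%. Its number of cells was larger at 5 dpw, at 54, 198, 48 and 245, and without it the summed log2 ratio of all neutrophil-like cells was 0.72 and 0.70. The cluster led by Csf3 and Il1a gave the smallest share, at 0.17%, 0.26%, 0.13% and 0.28%. Clusters were defined on these same cells, so their levels are given as a description.

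**Figure D4:**
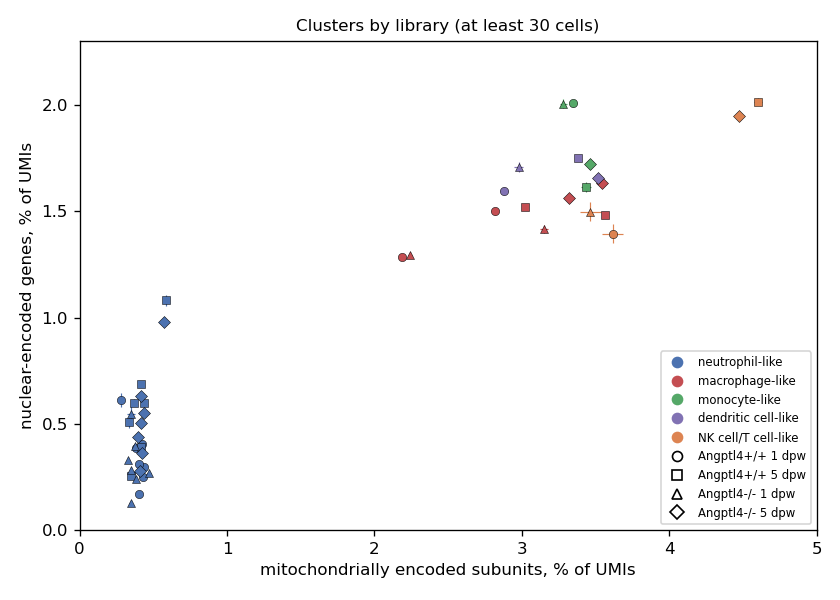
Each point is a cluster in a library with at least 30 cells, placed by the share of its UMIs from mitochondrially encoded subunits (horizontal) and from the 97 nuclear-encoded genes (vertical), with colour for class, shape for library and lines for 95% counting intervals. Neutrophil-like clusters lie at the left below 0.6% mitochondrially encoded and spread from 0.13% to 1.08% on the vertical axis, and the other classes lie to their right.

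Of the other lists in neutrophil-like cells, 9 of 10 further assembly factors tested rose, 6 of 10 tricarboxylic acid cycle genes rose and 74 of 91 ribosomal protein genes rose. Of the regulators of mitochondrial genes, 4 of 5 tested rose: the transcription factor genes Nrf1 and Yy1 and the subunits Gabpa and Gabpb1 of another. The summed log2 ratio of the regulators was 0.59 in Angptl4+/+, below the median of all genes, and 0.75 in Angptl4-/-, above it. Of 14 glycolysis genes 1 rose (Hk2) and 2 fell (Pgk1 and Gapdh), with summed log2 ratios of -0.27 and -0.20.

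In macrophage-like cells the day change was small. The summed level went from 13322 to 15022 CPM in Angptl4+/+, a log2 ratio of 0.17 (0.16 to 0.18), and from 13241 to 15998 in Angptl4-/-, a log2 ratio of 0.27 (0.26 to 0.29), with medians of all genes of 0.15 and 0.07. Of 84 genes tested 9 rose in both genotypes, beside 13.3% of 7866 genes, and 0 fell, beside 8.85%. The share of the 97 genes that passed was therefore near the background. The 9 were the assembly factors Ndufaf4, Ndufaf2 and Sdhaf1, the complex I subunits Ndufa12, Ndufa5, Ndufa10 and Ndufb4, and the subunit c genes Atp5g1 and Atp5g2. Among them Ndufaf2, Ndufa12, Ndufb4, Atp5g1 and Atp5g2 belong to the 28 genes with more than 10% shared words at the 3′ end. Relative to the median of all genes, 3 of the 84 passed upward (3.57%): Ndufaf4, Ndufaf2 and Atp5g2. This lay below the 9.31% of genes that passed, and 0 passed downward, beside 11.6%.

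Ndufaf4 (chromosome 4, 24898083 to 24905001), whose promoter is shown above, went from 4.59 to 13.7 CPM in Angptl4+/+ and from 5.56 to 15.6 in Angptl4-/-. Its log2 ratios were 1.58 (1.08 to 2.10) and 1.49 (0.91 to 2.10). Both libraries of 5 dpw were above both of 1 dpw. Ndufaf4 was named for its large ratios, so this order and these intervals are no separate support. Ndufaf2, a late assembly factor of complex I, went from 5.82 to 13 and from 8.86 to 14.0 CPM, log2 ratios of 1.16 and 0.66. Its paralog Ndufa12, which replaces it in the finished complex, went from 47.8 to 74.5 and from 47.2 to 82.6 CPM, log2 ratios of 0.64 and 0.81.

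The 3 subunit c genes parted company. Atp5g1 went from 140 to 210 CPM in Angptl4+/+ and from 131 to 239 in Angptl4-/-, and Atp5g2 from 157 to 251 and from 154 to 241. Atp5g3 stood at 191 and 196 CPM in Angptl4+/+ and at 193 and 203 in Angptl4-/-, with log2 ratios of 0.04 (-0.05 to 0.13) and 0.07 (-0.04 to 0.19). At 1 dpw Atp5g3 was the highest of these genes in macrophage-like cells and at 5 dpw the lowest, in both genotypes. Atp5g1 and Atp5g2 are among the genes with many shared words at the 3′ end, and Atp5g3 had none.

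The change was not the same in both macrophage-like clusters. In cluster 3 the summed log2 ratio was 0.24 in Angptl4+/+ and 0.27 in Angptl4-/-, and in cluster 4 it was -0.02 and 0.21. Markers of neutrophils also differed between days in the macrophage-like class, at 12464, 2141, 11308 and 2223 CPM, and cells in which S100a8 and S100a9 exceeded 1% of UMIs made up 10.6%, 3.56%, 9.98% and 4.21% of the class. Without those cells the summed log2 ratio of the class was 0.13 in Angptl4+/+ and 0.23 in Angptl4-/-, and 6 in place of 9 genes rose in both genotypes.

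Several lists in macrophage-like cells changed by more than the nuclear-encoded genes. The mitochondrially encoded subunits went from 23218 to 32729 CPM and from 24543 to 34333, log2 ratios of 0.50 and 0.48, and 7 of 13 rose in both genotypes. Glycolysis went the other way, with summed log2 ratios of -0.66 and -0.62 and 8 of 14 genes lower in both genotypes. Gapdh went from 5083 to 3243 CPM and from 3992 to 2683, and the glucose transporter gene Slc2a1 from 287 to 160 and from 274 to 149. Ribosomal protein genes rose in 60 of 91 cases. Tricarboxylic acid cycle genes rose in 4 of 13, with summed log2 ratios of 0.28 in Angptl4+/+ and 0.16 in Angptl4-/-. In Angptl4-/- that list thus changed by less than the nuclear-encoded genes.

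Of 5 genes that modify complex II, IV or V or are paralogs of their subunits, 3 fell in these cells: AA467197, Acod1 and Higd1a. AA467197, whose product is a paralog of the complex IV subunit Ndufa4, stood at 804, 200, 806 and 273 CPM in macrophage-like cells. Acod1, which makes itaconate, an inhibitor of complex II, fell from 344 to 71.4 CPM in Angptl4+/+ and from 338 to 76.1 in Angptl4-/-. Summed over the 5 genes, the level was 3674, 2754, 3589 and 2826 CPM in neutrophil-like cells. In macrophage-like cells that sum was 1777, 797, 1689 and 879 CPM. Neutrophil markers fell in the macrophage-like class between the same days, as given above. The part of neutrophil RNA in the fall of Acod1 was not tested. Ndufa4 itself stood at 196, 217, 216 and 284 CPM, so that AA467197 lay above it in both libraries of 1 dpw and below it in both of 5 dpw. In neutrophil-like cells AA467197 stood at 207, 240, 233 and 242 CPM, above Ndufa4 in every library, at 16.2, 44.7, 14.6 and 39.2.

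Among the smaller classes the direction differed. In monocyte-like cells the summed log2 ratio of 5 over 1 dpw was -0.32 in Angptl4+/+ and -0.22 in Angptl4-/-, beside medians of all genes of -0.07 and -0.03, with 22 of 79 and 7 of 78 genes below -0.5, against 13.6% and 9.25% of all genes tested, and 0 above 0.5, against 9.52% and 8.18%. Among NK cell/T cell-like cells it was 0.53 (0.49 to 0.58) and 0.38 (0.33 to 0.42), beside medians of 0.01 and 0.00, with 48 of 76 and 27 of 77 genes above 0.5, against 24.2% and 20.8% of all genes tested, and 0 below -0.5, against 23.4% and 20.8%. Each library of 1 dpw held 36 such cells. Neutrophil markers stood at 19826, 2919, 16587 and 2491 CPM in that class and their part in its change was not tested. In dendritic cell-like cells it was 0.13 and -0.04. Over all cells without classes it was 0.73 and 0.70, which also carries the change in the makeup of the cells.

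Between genotypes the summed levels differed little. The log2 ratio of Angptl4-/- over Angptl4+/+ was -0.01 at 1 dpw and 0.09 at 5 dpw in macrophage-like cells, and -0.10 and -0.13 in neutrophil-like cells, beside medians of all genes of 0.02 and -0.02 and of -0.09 and -0.07. In monocyte-like cells it was 0.00 (-0.02 to 0.02) and 0.09. These comparisons share their libraries with those between days, and with 1 library per group a difference between libraries and one between genotypes cannot be told apart.

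In macrophage-like cells 0 of 84 genes were higher in Angptl4-/- on both days, beside 0.363% of 7716 genes, and 1 was lower, Ndufa4l2, beside 0.7%. In neutrophil-like cells 0 of 75 were higher, beside 0.518% of 6183 genes, and 1 was lower, Ndufv1, beside 1.08%. No gene passed in both classes. With 1 gene in each class, the counts were near the background. These genes are described below because they passed. Their order between libraries and their intervals are therefore no separate support.

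Ndufa4l2 (chromosome 10, 127514967 to 127517154), a paralog of the complex IV subunit Ndufa4 known as a hypoxia-induced gene, stood at 16.6, 12.7, 7.47 and 2.09 CPM in macrophage-like cells. These rested on 148, 165, 43 and 16 UMIs in 32, 34, 11 and 9 cells, with up to 14, 22, 12 and 4 UMIs in 1 cell. The log2 ratio of Angptl4-/- over Angptl4+/+ was -1.15 (-1.68 to -0.65) at 1 dpw and -2.60 (-3.44 to -1.86) at 5 dpw. Both Angptl4-/- libraries were below both Angptl4+/+ libraries, on few cells, and the counting interval does not cover the spread between cells. Neutrophil-like cells held 2, 0, 0 and 2 UMIs of it and monocyte-like and NK cell/T cell-like cells 0.

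The genes compared next were picked after the values of Ndufa4l2 were seen. The 86 macrophage-like cells with a UMI of Ndufa4l2, chosen by that value, were described beside the rest of the class. Arg1, a macrophage arginase, stood at 6749 CPM in them and at 3347 in the rest, and the hypoxia-responsive genes Bnip3 and Egln3 at 611 and 301 beside 321 and 162. Slc2a1 stood at 331 CPM beside 206 and Vegfa, a growth factor gene, at 451 beside 321. Lower in these cells were the macrophage marker C1qa, at 750.5 CPM beside 895, and Ndufa4, at 156 beside 227. Rgs5, a pericyte marker, and Krt5, a keratinocyte marker, were at 0 UMIs in them. Col1a1, a fibroblast collagen, stood at 4.26 CPM (0.878 to 12.4) in them, from 3 UMIs, and at 0.895 in the rest.

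Ndufv1, the core subunit that binds NADH (chromosome 19, 4007384 to 4012806), stood at 5.08, 14.2, 2.02 and 8.87 CPM in neutrophil-like cells, from 100, 123, 37 and 109 UMIs. Its log2 ratio of Angptl4-/- over Angptl4+/+ was -1.33 (-1.92 to -0.77) at 1 dpw and -0.68 (-1.06 to -0.29) at 5 dpw. Angptl4-/- was lower on each day, while the change between days was larger than that between genotypes. In macrophage-like cells Ndufv1 stood at 34.6, 42.9, 29.0 and 45.4 CPM.

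Complex IV has subunits with tissue-bound paralogs. Cox4i1, Cox6a1, Cox6b1 and Cox7a2 led over Cox4i2, Cox6a2, Cox6b2 and Cox7a1 in each class taken as a whole, and Ndufa4 led over Ndufa4l2. This did not hold for AA467197, the other paralog of Ndufa4 described above. It lay above Ndufa4 in neutrophil-like cells of every library and in macrophage-like cells on the earlier day. Cox4i1 far exceeded Cox4i2, known from lung, in macrophage-like cells, where Cox4i2 stood at 1.46, 1.77, 0.868 and 0.785 CPM. Cox7a1, the form of heart and skeletal muscle, stood at 18.7, 14.8, 12.7 and 14.5 CPM in macrophage-like cells and at 0.254, 0.461, 0.436 and 0.488 in neutrophil-like cells, and Cox7a2 at 279, 272, 309 and 294 in macrophage-like cells. Cox6b2, known from testis, was higher in monocyte-like cells, at 14.2, 9.21, 13.3 and 12.3 CPM, than in macrophage-like cells, at 2.80, 5.53, 2.43 and 6.55. Cox7a2l, a further paralog of Cox7a2, also stood highest in monocyte-like or dendritic cell-like cells, at 490, 436, 547 and 501 CPM in monocyte-like and 162, 236, 141 and 181 in macrophage-like cells.

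**Figure D5:**
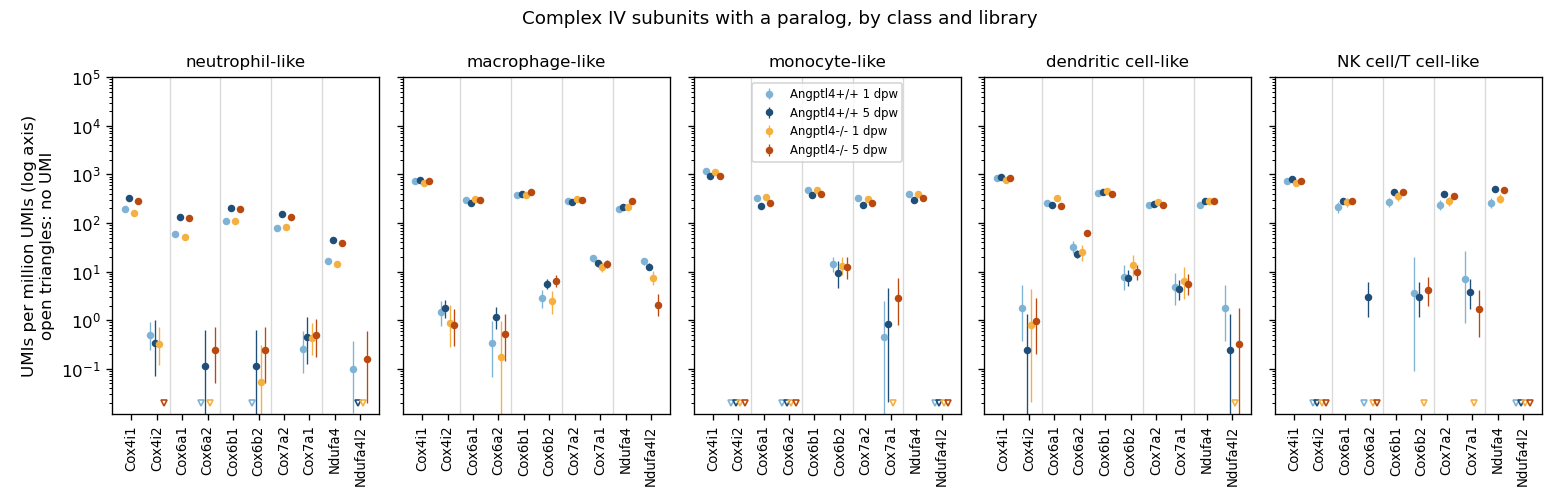
Points give the CPM, on a log axis, of complex IV subunits and their paralogs in each class and library, with exact 95% Poisson intervals and open triangles where no UMI was counted. Cox6a2 stands out in dendritic cell-like cells and Cox7a1 and Ndufa4l2 in macrophage-like cells. Cox4i1, Cox6a1, Cox6b1, Cox7a2 and Ndufa4 (paired with Ndufa4l2) lead their pairs in all 5 classes. AA467197 is not counted in these pairs.

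Cox6a2, the muscle form of a complex IV subunit (chromosome 7, 128205435 to 128206387), stood at 32.1, 23.1, 24.9 and 63.3 CPM in dendritic cell-like cells. It was at most 1.15 CPM in macrophage-like cells. It came from few cells, 5, 11, 2 and 15 per library, with up to 28 UMIs in 1 cell. Siglech marks plasmacytoid dendritic cells, and of the 44 dendritic cell-like cells with at least 3 UMIs of it 30 held Cox6a2, at 748 CPM over the 44. Of the other 692 cells 3 held it, at 0.312 CPM. The split by Siglech was chosen after the values were seen. The Siglech cells numbered 6, 19, 4 and 15 per library, with Cox6a2 at 733, 443, 773 and 1137 CPM, while the common form Cox6a1 stood at 216 CPM in them and at 247 in the others. Over the 97 genes the Siglech cells gave 2% of UMIs and the others 1.68%.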

How the data were processed

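CD45+ PI- wound cells of 4 libraries were analysed, 1 per genotype and day, each with total UMIs and cells as given above. Per the labels the authors used the Chromium Single Cell 3′ V3 kit and, per the processing notes, Cell Ranger 3.1.0 on mm10 and Seurat 3.0. The deposited matrices hold raw UMI counts per gene and cell. Coordinates are from GENCODE M21 (GRCm38) and promoters from RefSeq GRCm38.p6.

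Cells with at least 200 genes and at most 10% mitochondrial UMIs were kept. Libraries were integrated and clustered in R 4.3.3 with Seurat 5.3.0 (2000 variable genes without the genes described, 30 dimensions, resolution 0.5), and each cluster was named "-like" from marker genes, at least 3 of them detected in at least 10% of its cells. Doublets were kept, since the automatic Scrublet threshold in scanpy 1.11.5 marked 0 to 3 cells per library. An alternative removed 789 cells with the highest scores, at 0.8% per 1000 cells. Counts were summed per class and library with Python 3.11.15, numpy 2.4.6 and scipy 1.17.1. Ratios carry exact conditional binomial intervals, levels exact Poisson intervals, both 95% and for counting error only. The procedure was run on simulated Poisson counts for the day pairs of macrophage-like cells. These counts held no spread between cells or libraries, so the run cannot judge calls or intervals where such spread exists. A gene was called past 0.5 on the log2 scale with the same sign in each pair compared, with at least 100 UMIs over both sides. A side with 0 UMIs was set at 3. No test was made, as 1 library per group leaves no replicates.

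Genes were named by rule: the 3 most abundant of each complex, complex II, subunits with paralogs, the top 5 of each joint call and the 2 most abundant of each pathway list where described. Further genes were named after their values were seen. The members and lists were chosen with earlier results of these data known. Alternatives changed the fold, the minimum, depth (thinned to 1000 UMIs per cell), denominator, cell weighting, cell filter, doublets, resolution, integration and naming of cells, and 4 were added later.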

Additional observations from a re-analysis of the deposited data

Results flagged for a closer look

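Some summed log2 ratios pointed in opposite directions in a pair of groups, with counting intervals that excluded 0 on each side. The difference itself was not tested in any of them, since each group has 1 library. In macrophage-like cells the ratio of Angptl4-/- over Angptl4+/+ for complex I was -0.0492 at 1 dpw and 0.085 at 5 dpw. In dendritic cell-like cells the ratio of 5 over 1 dpw for all 97 genes was 0.13 in Angptl4+/+ and -0.0421 in Angptl4-/-, and the ratio of Angptl4-/- over Angptl4+/+ was 0.10 at 1 dpw and -0.0773 at 5 dpw. Among NK cell/T cell-like cells the ratio of Angptl4-/- over Angptl4+/+ was 0.10 at 1 dpw and -0.0499 at 5 dpw. Each of these ratios is smaller than the threshold of 0.5 used for single genes.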

How the results depend on the processing

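Each comparison was recomputed under the alternatives, 4 of which were chosen after seeing the data (without the Siglecf-led neutrophil-like cluster, without macrophage-like cells rich in S100a8 and S100a9, without neutrophil-like cells rich in mast cell or red blood cell markers, and with the median of all genes taken off each ratio). Of 140 recomputed counts of genes 121 stayed within 1.5 times the original. Several of the original counts were 0 or 1, so this total does not stand for the larger counts. With cells thinned to 1000 UMIs, 48 of 55 genes tested, in place of 73, were higher and 0, in place of 1, lower in macrophage-like than in neutrophil-like cells, 4 in place of 9 rose between days in macrophage-like cells, and 0 in place of 1 were lower in Angptl4-/- in each class; fewer genes were tested there. With a fold of 1.0, 1 rose between days in macrophage-like cells, 31 in place of 63 rose in neutrophil-like cells, and 0 were lower in Angptl4-/- neutrophil-like cells. With the median of all genes taken off, the counts were 42 and 2 between classes, 3 between days in macrophage-like cells, and 25 upward and 3 downward in neutrophil-like cells. With ribosomal and mitochondrial genes out of the denominator, 14 rose between days in macrophage-like cells. The count lower in Angptl4-/- was 2 in macrophage-like cells and 3 in neutrophil-like cells with a minimum of 20 UMIs, and in neutrophil-like cells 2 without doublets, 3 with marker scores in place of clusters and 2 with the mean of per-cell CPM.

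The cause of these shifts was not tested beyond the construction of each alternative. Of 264 recomputed summed ratios 180 stayed within the original counting interval, 80 moved beyond it and 4 reversed. The day ratio of dendritic cell-like cells in Angptl4-/- went from -0.04 to 0.36 with marker scores and to 0.0448 with the other denominator. With marker scores the genotype ratio of monocyte-like cells at 5 dpw went from 0.09 to -0.0299 and that of dendritic cell-like cells at 1 dpw from 0.10 to -0.0362. Over 11 alternatives the summed day ratio of neutrophil-like cells stayed within 0.72 to 0.82 in Angptl4+/+ and 0.70 to 0.82 in Angptl4-/-. That range leaves out the alternative with the median of all genes taken off. Those medians were 0.66 and 0.69, and the part of the summed ratio that is shared with all genes was not tested.

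No paired analysis was possible because each group has 1 library and the labels give no replicate numbers, and leaving out a library leaves no group for comparison. Depth limits genes under 100 UMIs, which were described without calls.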
